A study of Caenorhabditis elegans with 2 samples.

Results

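The autosomal tRNA genes of Caenorhabditis elegans were examined in a ChIP-seq experiment on SEM-2, a DNA-binding protein of the SoxC family. The members were all genes of biotype tRNA on the 5 autosomes in the Ensembl annotation of WBcel235, which gave 336 of the 612 nuclear tRNA genes. The 276 genes on X and the mitochondrial tRNA genes were left out. Each gene was widened by 100 bp on either side, and the strongest peak with its summit in that window was read from each of 4 peak lists. Embryos of mixed stage and pooled male and female sex, with a labelled age of 1 hour, were obtained by egg bleaching from strain OP701. The strain carries the allele unc-119(tm4063) and the transgene wgIs701, which holds sem-2::TY1::EGFP::3xFLAG together with the marker unc-119(+), so the tagged SEM-2 came from 1 transgenic line. Sonicated chromatin of 200 to 800 bp was taken down with anti-GFP antibody. The series held 1 group with 2 biological replicates, numbered 1 and 3, and each replicate stood for a whole population of embryos with all cell types together. No second condition, no untagged strain and no other factor was analysed here, so what is particular to SEM-2 at these genes was not tested.

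A tRNA gene is transcribed by RNA polymerase III from a promoter that lies inside the gene. The A box near the 5′ end and the B box further in are bound by TFIIIC, which places TFIIIB just upstream and so brings in the polymerase, and transcription stops at a run of T after the 3′ end. The worm holds many copies of most tRNA genes, scattered singly and in small groups, often within introns of protein-coding genes.

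The sequences below are shown because genes that give the same spliced tRNA differed widely in peak signal. They are the RefSeq sequence of WBcel235 on the gene's own strand, 5′ to 3′, and capitals mark matches to an A box core (TNGCNNAG) and a B box core (GTTCNANNC). Of the 5 autosomal Ile genes with anticodon TAT, those printed are the 2 with an annotated intron. They are F57F5.t1 (chrV:12002176-12002260, plus strand) and K11C4.t1 (chrV:6917466-6917550, plus strand). The other 3, T22C1.t1, C36F7.t2 and C36F7.t3, have no annotated intron and no summit in any list. The Leu genes with anticodon CAA are C14B9.t2 (chrIII:8109603-8109724, plus strand), ZK822.t1 (chrIV:11928478-11928596, minus strand), B0285.t1 (chrIII:4362524-4362643, plus strand) and F22B7.t1 (chrIII:8639306-8639425, plus strand).
F57F5.t1: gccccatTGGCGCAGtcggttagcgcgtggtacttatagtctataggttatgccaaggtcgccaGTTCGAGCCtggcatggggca
K11C4.t1: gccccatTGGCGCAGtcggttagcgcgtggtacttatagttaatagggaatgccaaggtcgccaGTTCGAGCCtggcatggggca
C14B9.t2: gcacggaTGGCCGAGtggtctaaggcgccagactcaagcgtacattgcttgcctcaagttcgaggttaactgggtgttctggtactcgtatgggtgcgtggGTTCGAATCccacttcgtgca
ZK822.t1: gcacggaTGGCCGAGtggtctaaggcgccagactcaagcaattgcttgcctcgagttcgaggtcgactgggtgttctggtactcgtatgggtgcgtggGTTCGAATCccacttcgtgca
B0285.t1: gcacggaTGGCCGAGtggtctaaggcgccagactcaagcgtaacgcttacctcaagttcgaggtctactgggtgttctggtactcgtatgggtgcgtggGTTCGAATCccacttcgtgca
F22B7.t1: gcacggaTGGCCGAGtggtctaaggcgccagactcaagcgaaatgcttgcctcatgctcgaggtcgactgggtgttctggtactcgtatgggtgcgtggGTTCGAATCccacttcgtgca

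The Trp genes with anticodon CCA include sup-5, sup-24 and sup-29, loci known for mutations of the anticodon that turn the tRNA into a suppressor of amber stop codons. Their annotated sequences are identical, so only the flanks tell them apart. The 40 bp upstream are printed for 5 of the copies, all on the gene's own strand and from the same RefSeq assembly. They are those of sup-5 (chrIII:8678569-8678608, minus strand), sup-29 (chrIV:3681952-3681991, minus strand), rtw-6 (chrIV:7344228-7344267, minus strand), sup-24 (chrIV:15289663-15289702, plus strand) and Y4C6B.t2 (chrIV:5344372-5344411, minus strand), with no capitals since neither box was marked there.
sup-5: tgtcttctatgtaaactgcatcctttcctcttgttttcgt
sup-29: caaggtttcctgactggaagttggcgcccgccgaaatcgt
rtw-6: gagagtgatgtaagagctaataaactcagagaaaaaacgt
sup-24: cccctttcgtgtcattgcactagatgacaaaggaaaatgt
Y4C6B.t2: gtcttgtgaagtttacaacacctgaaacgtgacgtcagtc

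Close to 1 in 3 autosomal tRNA genes carried a summit in the list of peaks that passed the authors' test of reproducibility, here called the thresholded list. The count was 111 of 336 genes, or 33.0% (95% exact Clopper-Pearson interval 28.0 to 38.3%, which covers counting error only), at 108 distinct peaks. As background, 0.154% of autosomal tiles of 272 bp, the length of a typical widened gene, held a thresholded summit. The combined list and both replicate lists are labelled as peaks and background, so a summit in them alone is not a called site. In the combined list, made by the authors from the reads of both replicates, 202 genes (60.1%) held a summit against 8.16% of tiles. Replicate 1 had a summit at 205 genes (61.0%) against 8.38% of tiles, and replicate 3 at 188 genes (56.0%) against 7.87% of tiles. A summit appeared in none of the lists at 100 genes. The X-linked tRNA genes stood at 85 of 276 in the thresholded list (30.8%, interval 25.4 to 36.6%), which overlaps the autosomal interval.

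Signal here is the peak caller's value as the authors deposited it, in a scale that is not given, and it is compared only within a list. Thresholded signals at the autosomal genes ran from 154.9 to 850.3. By peak, the median was 253.8 for the 108 peaks at these genes and 201.8 for the 363 other autosomal peaks of the list. Of the 50 strongest nuclear peaks 9 lay at autosomal tRNA genes, of the 100 strongest 16, and of the 200 strongest 41. Over all 617 nuclear peaks of the list the count was 108, so the shares among the strongest were close to that of the whole list. By gene, the X-linked genes with a thresholded summit had a median signal of 355 against 258 at the autosomal ones; the difference was not tested. Read depth is unknown because the lists carry no counts, so no interval can be put on the signal of a peak.

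The strongest autosomal site was C37A2.t1 (chromosome I, 6781803 to 6781874), a Cys gene within an intron of cye-1, the cyclin E gene, on the same strand. Its signal was 850.3 in the combined list, 545 in replicate 1 and 289 in replicate 3. F57F5.t1, the Ile gene printed above, followed with 799, and with 506 and 291 in replicates 1 and 3. Both replicates ranked these genes among their 50 strongest peaks. The Trp gene sup-5 (chromosome III, 8678497 to 8678568), in an intron of fli-1 on the same strand, reached 746 in the combined list, 466 in replicate 1 and 268 in replicate 3. F33G12.t1 (chromosome II, 5032771 to 5032844), an Ile gene with anticodon AAT in an intron of F33G12.3 on the opposite strand, had 656, 429 and 213 in the same order. F29C4.t1 (chromosome IV, 143982 to 144054), an Arg gene with anticodon CCT that lies against the strand of its host col-99, a collagen gene, had 633, 407 and 225. These 5 genes lay on 5 different autosomes, and 4 of them were within introns, as were 188 of all 336 members.

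Below them came the Leu gene C14B9.t2 at 600.3 and 2 Arg genes with anticodon TCG, F35H8.t1 at 589 and F56F3.t1 at 581. The Ser gene ZC455.t1 followed at 583, and the Ala gene K06A4.t1, in an intron of swt-5, stood at 563. None of these 10 strongest genes had another tRNA gene within 1000 bp, and 7 of the 10 lay in introns of protein-coding genes. Replicate 1 values at these 10 genes ran from 349.9 to 545, and replicate 3 values from 181 to 291.

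At the edge of the thresholded list, the lowest autosomal tRNA genes inside were F47G6.t1 (Arg, 154.9), T16D1.t1 (Ile, 155.2), F14B6.t2 (Met, 155.3), C06B8.t3 (Gly, 155.5) and rte-2 (Glu, 157.6). Just outside lay C13B4.t1 (Gln, 152.5), K07C10.t1 (Lys, 149.6), Y97E10C.t1 (Thr, 149.2), Y110A2AL.t1 (Leu, 147.7) and M01E10.t1 (Glu, 147.3). These 10 genes differ by little in signal, so the membership of the genes nearest the edge turns on small differences. The thresholded list was found to be the 634 strongest peaks of the combined list.

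**Figure D1:**
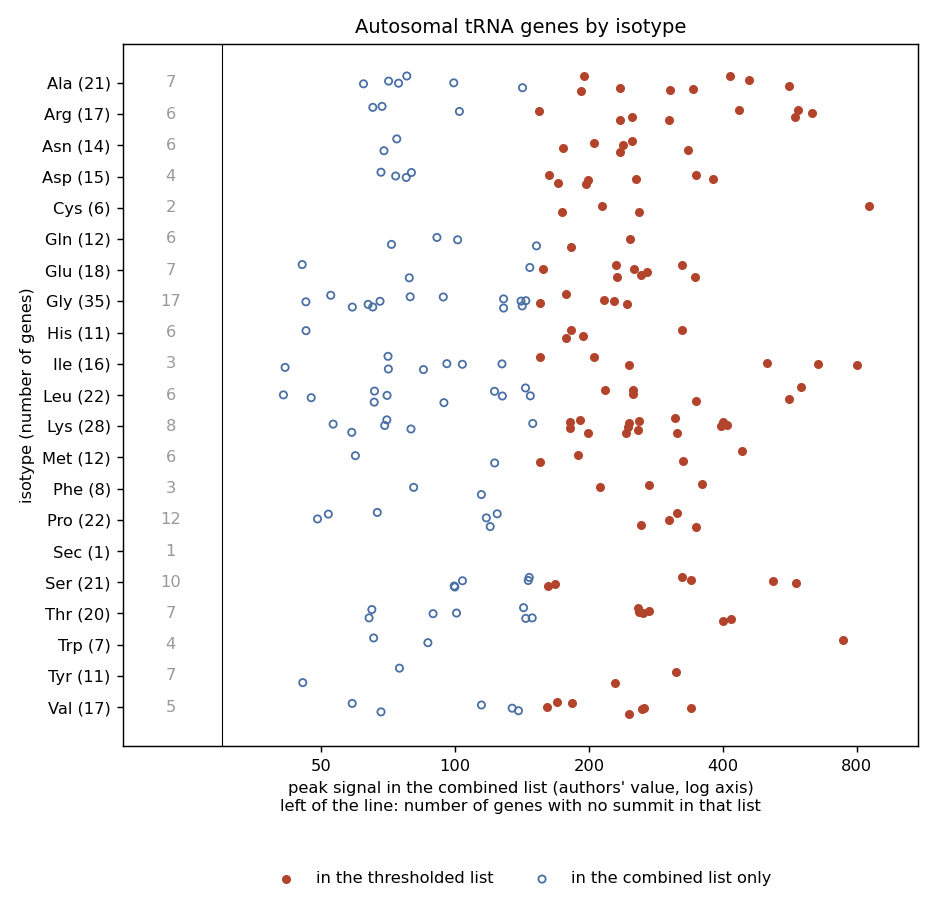
Peak signal in the combined list (log axis) for each autosomal tRNA gene, by its annotated isotype, with the number of genes of each isotype in brackets. Filled points are genes in the thresholded list, open points genes in the combined list only, and the grey number counts genes with no combined summit; the 2 genes without an annotated isotype are not drawn. Thresholded genes occur in 20 isotypes, Lys has 14 of 28 and Gly 5 of 35.

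Every standard isotype had at least 1 gene in the thresholded list, while the lone selenocysteine gene and the 2 genes with no annotated isotype had none. Among the 17 isotypes with 10 or more autosomal genes, Lys had the highest share, 14 of 28 (50%, interval 30.6 to 69.4%), and Gly the lowest, 5 of 35 (14.3%, interval 4.81 to 30.3%). The places at either end depend on how genes are counted. With 1 gene kept for each summit, Lys had 12 of 28 (42.9%), below Arg at 8 of 17 (47.1%). Among the 634 strongest peaks of replicate 1, Glu had the highest share, 10 of 18, ahead of Lys at 15 of 28, and His the lowest, 1 of 11, below Gly at 7 of 35. In replicate 3, Asn was highest at 5 of 14, Lys had 8 of 28, and Gly was lowest at 3 of 35. With any overlap of the peak, Gln, at 2 of 12, fell below Gly at 6 of 35. On X the counts lay the other way round, with 3 of 18 Lys genes and 9 of 20 Gly genes, so the order of this pair was not shared by X. Arg (8 of 17), Asp (7 of 15), Glu (8 of 18), Asn (6 of 14), Val (7 of 17), Ala (8 of 21), Ile (6 of 16), His (4 of 11) and Met (4 of 12) stood above the autosomal share in the thresholded list. Among the strongest peaks of replicate 1 His had 1 of 11, against 34.5% of all members. In replicate 3 Val had 3 of 17 and Met 2 of 12, against 23.2% of all members. Below the autosomal share, Thr had 6 of 20, Ser 6 of 21, Leu 6 of 22, Pro 4 of 22, Tyr 2 of 11 and Gln 2 of 12. The isotypes with fewer genes had 4 of 6 for Cys, 3 of 8 for Phe and 1 of 7 for Trp. With so few genes in each, most of these intervals overlap.

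Within an isotype the anticodons could differ. All 3 autosomal Arg genes with anticodon TCG were in the thresholded list, at 588.5, 581.4 and 250.3, against 1 of 6 with ACG, at 435. For Pro, 2 of 3 genes with CGG were listed against 1 of 16 with TGG. These pairs were picked from many anticodons, and 33.0% of all members were listed. The intervals overlap within each pair, 29.2 to 100% against 0.421 to 64.1% for Arg and 9.43 to 99.2% against 0.158 to 30.2% for Pro. In replicate 3 alone the counts were 2 of 3 against 1 of 6 for Arg and 1 of 3 against 1 of 16 for Pro. Of the 3 Gly genes with CCC none had a combined summit. The selenocysteine gene K11H12.t1 (chromosome IV, 658181 to 658266), which decodes UGA in selenoprotein messages, had no combined summit within its window and a weak one of 33.5 in replicate 3. The strongest genes of the remaining isotypes not yet named were B0350.t1 for Lys at 408, Y39A1A.t1 for Thr at 417, F28F8.t3 for Asp at 379.7, Y39B6A.t9 for Phe at 359.7 and F22B7.t5 for Pro at 348. Further down came Y22D7AL.t4 for Glu at 346, F22G12.t1 for Val at 339, ZK507.t1 for Asn at 334, W09G10.t1 for His at 324 and T22F7.t1 for Tyr at 315. Among the Glu genes with a curated name, rte-4 stood at 269.9, well above rte-2 at 157.6. The highest Gln gene was T03E6.t1 at 248 and the highest Gly gene T04D3.t2 at 243.

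Copies with an identical gene sequence were often split between strong peaks and none. The 336 genes had 137 distinct sequences, and 23 sequences occurred in 5 or more autosomal copies, 189 genes in all. Of these 23 families, 22 had some copies in the thresholded list and some outside, 1 had none in it, and none had every copy in it. Since all 336 widened sequences differ, the flanks allow the copies to be told apart by position. How the authors placed reads that match several copies is not given in the sources used here, and its part in these differences was not tested.

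The Trp family printed above, with 6 identical autosomal genes, spanned almost the whole range. sup-5 stood at 746, while sup-29 had 87.0 and rtw-6 65.7 in the combined list. sup-24 had no combined summit but had peaks of 142 in replicate 1 and 56.7 in replicate 3. Y95B8A.t1 appeared in replicate 3 alone at 25.1, and Y4C6B.t2 in none of the 4 lists. The same gene sequence thus carried the third strongest autosomal tRNA peak at one place and no listed peak at another.

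Lys genes with anticodon CTT formed a family of 15 autosomal copies, of which 10 were in the thresholded list, at signals from 181 to 408. Of the other 5, 3 had combined summits of 149.6, 69.5 and 53.3, and 2 had none. Of the 10 X-linked copies of this sequence, 1 was in the thresholded list. Among the 10 listed autosomal copies, W09G10.t2 and W10G11.t1 each share their summit with a neighbouring Thr gene. The first of these summits lies nearer to the Thr gene, W09G10.t3. The Gly family with anticodon TCC, at 18 autosomal copies the largest, had 3 in the list, T04D3.t2 at 243, Y82E9BR.t1 at 216 and Y43D4A.t2 at 178, and 4 of its 11 X-linked copies. Its 7 autosomal copies without a combined summit included 3 C12C8 genes and 2 Y51H4A genes.

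Further families had shares above, between and below those of Lys CTT and Gly TCC. Ala AGC had 5 of 8 copies in the list, at 457 for ZK622.t1 down to 234.9 for Y65A5A.t2, and the remaining 3 had 78.0, 74.7 and no combined summit. Cys GCA had 4 of 5, with C37A2.t1 at 850.3 and the next copy, ZC412.t2, at 259. All 9 copies of Ile AAT had a combined summit, from 70.8 to 503, and 4 were in the thresholded list. Leu AAG had 7 copies with none in the list, the highest at 148. Pro TGG had 1 of 11, T23F1.t2, and that summit was shared with the neighbouring Lys gene T23F1.t1.

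**Figure D2:**
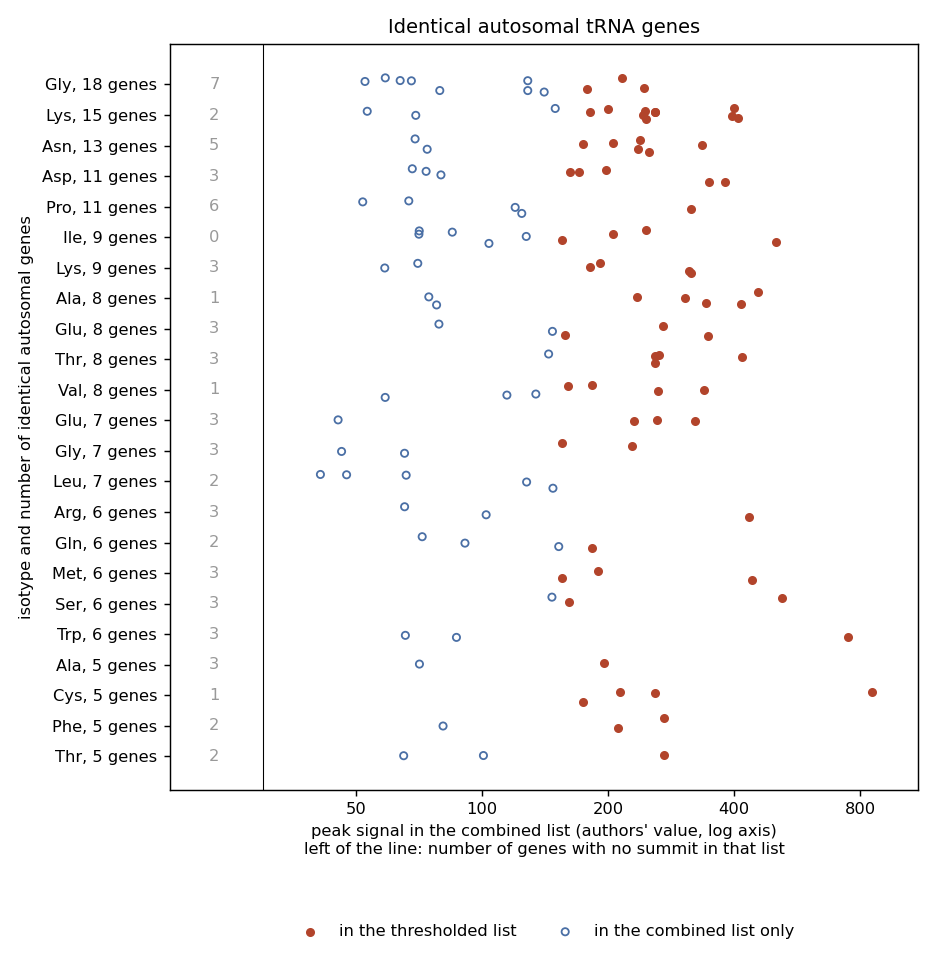
Combined-list signal (log axis) of each copy in the 23 families of 5 or more identical autosomal tRNA genes, 1 line per family. Filled points are copies in the thresholded list, open points copies in the combined list only, and the grey number counts copies with no combined summit. The 6 Trp genes spread from 746 to no summit, and the 9 Ile genes are the only family with a combined summit at every copy.

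The genes with an annotated intron show the same spread among copies that give the same spliced tRNA. The annotation gives an intron to 17 members, and 5 of them were in the thresholded list (29.4%), against 106 of 319 without one (33.2%). F57F5.t1 and K11C4.t1, printed above, are identical once their introns of 11 bp are removed and differ by 4 edits over the whole gene. F57F5.t1 had 799 in the combined list, whereas K11C4.t1 had 95.9, with 43.4 in replicate 1 and 33.3 in replicate 3. The nearest protein-coding 5′ end lay 379 bp from F57F5.t1 and 11572 bp from K11C4.t1.

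The 4 Leu genes with anticodon CAA also share their spliced sequence and differ by 6 or 7 edits from C14B9.t2 within the gene. C14B9.t2 had 600.3 (405 and 189 in replicates 1 and 3), and ZK822.t1 had 251 (185 and 87.5). B0285.t1, at 123 (83.4 and 31.8), was outside the thresholded list, and F22B7.t1 had no summit in any list. The order was thus the same in both replicates for the 3 genes with a peak. The nearest protein-coding 5′ end lay 813 bp from C14B9.t2, 2276 bp from ZK822.t1, 2750 bp from B0285.t1 and only 439 bp from F22B7.t1. Of the 11 Tyr genes with introns, 2 were in the list, T22F7.t1 at 315 and C47E8.t1 at 229. Y43F4A.t1, identical to T22F7.t1 with its intron, had 75.1 in the combined list and no summit in replicate 3. Here the distance was 6684 bp for T22F7.t1 and 1494 bp for Y43F4A.t1. Signal thus did not follow this distance in every set.

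By number of identical copies, genes without any had the lowest share in the list. Among single-copy genes the count was 17 of 86 (19.8%, interval 12.0 to 29.8%). It was 19 of 51 (37.3%, interval 24.1 to 51.9%) for sequences with 2 to 5 nuclear copies and 75 of 199 (37.7%, interval 30.9 to 44.8%) for those with more than 5. In the 634 strongest peaks of each replicate, these classes had 19, 20 and 77 genes in replicate 1 and 15, 14 and 49 in replicate 3. The share of the last class was thus 24.6% in replicate 3 alone, against 17.4% for single-copy genes. The single-copy genes in the list were themselves close to others: 13 of 45 genes that lay 1 or 2 edits from another nuclear tRNA gene were listed, and 4 of 19 at 3 to 5 edits. No gene was listed among the 9 at 6 to 10 edits or the 13 at over 10 edits, which allow shares of up to 33.6% and 24.7% by the exact interval. These classes of edits were chosen after the values had been seen.

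The B box core was present at nearly all members, listed or not, and the A box core at fewer. A match to the B box core on the gene's strand was found in 319 of 336 genes (94.9%), against 1.21% of autosomal tiles of 72 bp. Such a match stood in 106 of the 111 thresholded genes (95.5%) and in 92 of the 100 genes in none of the lists (92%). The A box core matched 155 genes (46.1%) against 3.41% of tiles, and 55 of these 155 genes were thresholded, against 56 of the 181 without a match. A run of TTTT, the polymerase's stop signal, lay within 30 bp after the 3′ end at 332 genes (98.8%), against 36.3% of tiles of 30 bp. All 3 were read on the gene's strand, the TTTT window shares no base with either box, and a match says only that these letters are in the window.

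The 17 genes without the B box core held 5 thresholded genes, of which 3 were Met genes whose T arm reads GATC in place of GTTC. An A at that place in the T arm is known from the initiator tRNA of eukaryotes; the annotation used here does not mark initiator genes. Of the 7 autosomal Met genes with this arm, T15B12.t1 had 441 (281 in replicate 1 and 161 in replicate 3), F14B6.t1 had 189 and F14B6.t2 155. Y57A10C.t1, Y22D7AL.t3, F15H9.t1 and T05C7.t1 had no combined summit in their windows. A replicate 1 summit of 237 fell in the window of Y22D7AL.t3 and is the same peak as at its neighbour Y22D7AL.t4. The other 2 thresholded genes without the core were the Pro gene F14B4.t2 at 302 and the Glu gene Y69A2AR.t2 at 253.

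The Sox words ACAATG and ACAAAG, the cores of sites known for Sox proteins, were found at few of these peaks. On either strand within 50 bp of the summit, 4 of 108 windows at autosomal tRNA genes held a word (3.70%), as did 5 of 83 at X-linked tRNA genes (6.02%). The other nuclear thresholded summits had 36 of 426 (8.45%), and autosomal tiles of the same length had 10.8%. The GC content was 51.2 ± 5.42% (SD over the 108 windows) at autosomal tRNA genes and 35.5 ± 8.68% in the tiles. It was 49.7 ± 5.91% at X-linked tRNA genes and 50.1 ± 8.72% at the other nuclear summits. Base composition thus differed between each set of summits and the tiles, and its part in the shares was not tested.

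Summits lay over the gene itself and towards its 5′ end. Of the 108 thresholded summits, 79 were inside the annotated gene (73.1%), 21 upstream and 8 downstream. The median position was 22 bp from the 5′ end along the gene's strand (order-statistic 95% interval 13 to 33 bp), where the median gene is 72 bp long. The summits of the 634 strongest peaks gave a median of 30.5 bp in replicate 1 and 19 bp in replicate 3. In steps of 10 bp, 20 summits lay 10 to 19 bp from the 5′ end and 17 lay 40 to 49 bp from it, while the step of 20 to 29 bp held 7. At sup-5 the summit was 23 bp into the gene, at F57F5.t1 11 bp and at F33G12.t1 44 bp. The median width of the peaks was 436 bp, about the length of the precipitated fragments and several times that of a gene, which limits what the position of a summit can resolve.

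**Figure D3:**
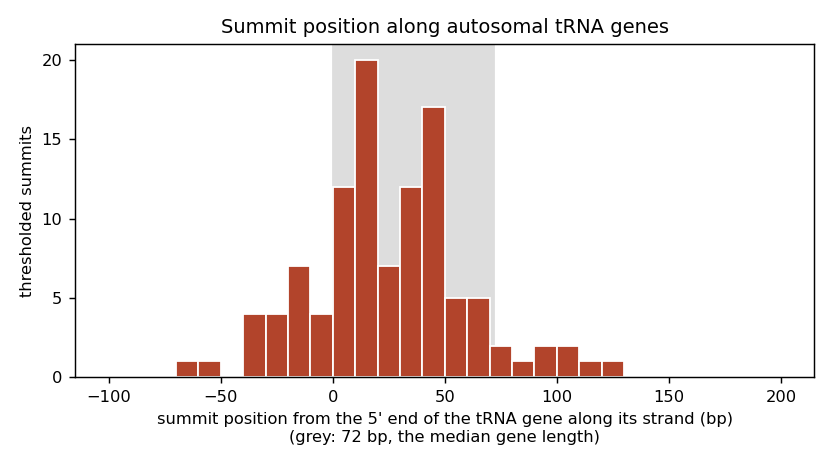
Histogram of the position of the 108 thresholded summits at autosomal tRNA genes, in bp from the 5′ end of the gene along its strand, in steps of 10 bp. The grey band is a gene of the median length of 72 bp; 79 summits lie inside their own gene, and the tallest steps, at 20 and 17 summits, stand at 10 to 19 and 40 to 49 bp.

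The sequence just upstream also differed in composition between listed and unlisted genes, a comparison made after the values had been seen. The A and T content of the 50 bp before the gene was 51.0 ± 8.41% (SD) at the 111 thresholded genes and 57.8 ± 9.49% at the other 225. It was 60.3 ± 9.81% at the 100 genes in none of the lists. The spreads of the 3 sets overlap. A TATA word in this stretch was found at 56 genes, of which 11 were thresholded (19.6%, interval 10.2 to 32.4%), against 100 of the 280 without it (35.7%, interval 30.1 to 41.6%). In replicate 3 alone these counts were 12 of 56 and 66 of 280, so the gap was smaller there.

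Gene context was compared next. Of the members, 111 lay in an intron of a protein-coding gene on the same strand, 77 in an intron on the opposite strand, 9 overlapped an exon and 139 lay outside protein-coding genes. The thresholded counts were 40 of 111 (36.0%), 25 of 77 (32.5%), 4 of 9 and 42 of 139 (30.2%), and the intervals of these shares overlap. By replicate 3 alone the same-strand share was 22.5%, below that of the genes outside at 23.7%, so the order of these classes is not stable.

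Distance to the annotated 5′ end of the nearest protein-coding gene gave a wider range. The share was 29 of 69 (42.0%, interval 30.2 to 54.5%) up to 500 bp, 39 of 98 (39.8%) at 501 to 1500 bp, 34 of 124 (27.4%) at 1501 to 5000 bp and 9 of 45 (20%, interval 9.58 to 34.6%) beyond 5000 bp. Replicate 1 alone gave 32, 39, 36 and 9 genes in these classes and replicate 3 gave 20, 23, 27 and 8. The first class was the highest in both. Between autosomes the counts were 22 of 66 on I, 22 of 57 on II, 23 of 64 on III, 23 of 71 on IV and 21 of 78 on V, with overlapping intervals.

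By close tRNA neighbours, the share was higher at genes without any. Of the genes with no other tRNA gene within 1000 bp, 89 were thresholded (37.9%, interval 31.6 to 44.4%), against 22 of those with at least 1 (21.8%, interval 14.2 to 31.1%). In the combined list the shares were alike, at 60.4% and 59.4%, while the median combined signal was 190.5 and 126.0. Each replicate alone gave the same order, with 93 and 23 genes in replicate 1 and 61 and 17 in replicate 3. Among the genes without a neighbour, the single-copy genes again had the lowest share, 16 of 72 (22.2%), against 18 of 43 and 55 of 120 for the classes with more copies.

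The close neighbours formed 39 pairs, 5 groups of 3 and 2 groups of 4. The group on chromosome IV (16398384 to 16400967) held Y65A5A.t1 (Ala) at 342, Y65A5A.t2 (Ala) at 234.9, Y65A5A.t3 (Val) with no combined summit and Y65A5A.t4 (His) at 182. The group on chromosome I (9327424 to 9328701) held 4 identical Gly genes, of which C12C8.t4 had 58.8, C12C8.t2 52.6 and the remaining ones no combined summit. One group thus had 3 of its genes in the thresholded list and the other none. Some neighbours lie so close that their widened windows overlap, and 3 thresholded summits fell in the windows of 2 genes each: W09G10.t3 and W09G10.t2 at 400.2, W10G11.t2 and W10G11.t1 at 258.5, and T23F1.t1 and T23F1.t2 at 315.

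**Figure D4:**
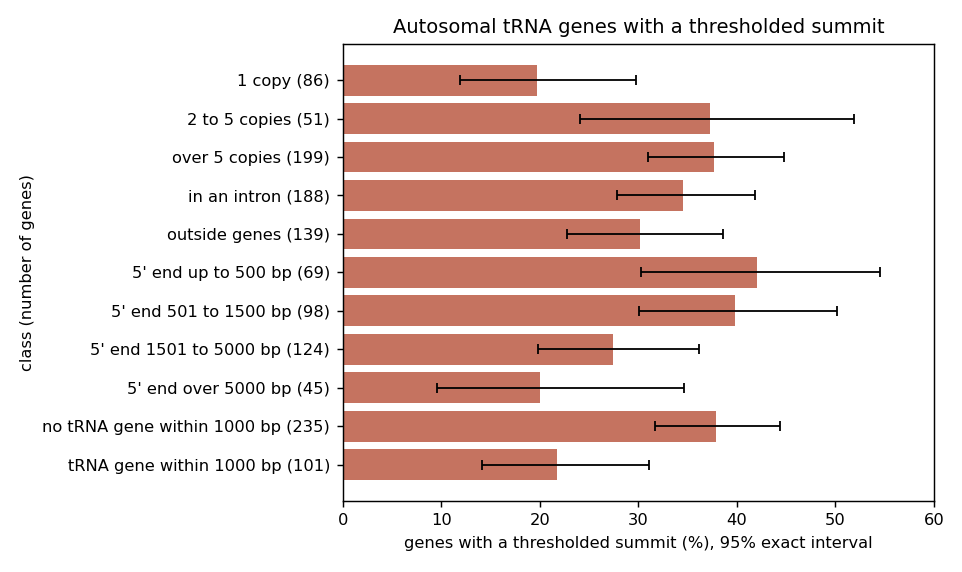
Share of autosomal tRNA genes with a thresholded summit, by number of identical nuclear copies, by place in an intron or outside genes, by distance to the nearest protein-coding 5′ end and by the presence of another tRNA gene within 1000 bp. Bars are percentages, error bars 95% exact intervals for counting error, and numbers in brackets the genes in each class. Single-copy genes (19.8%), genes beyond 5000 bp (20%) and genes with a tRNA neighbour (21.8%) have the lowest bars.

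The replicates ranked the genes in a similar order but did not list the same ones throughout. A summit was present in both replicate lists at 160 genes, in replicate 1 only at 45, in replicate 3 only at 28 and in neither at 103. Across the 160 genes the signals had a Spearman correlation of 0.765, a description across genes, which are not independent replicates. Of the 111 thresholded genes, 70 were among the 634 strongest peaks of both replicates, 32 of replicate 1 only, 4 of replicate 3 only and 5 of neither. A further 16 genes were among those peaks of a replicate and not thresholded, 2 of them in both. At 6 genes both replicates had a summit and the combined list had none, as at K02B12.t1 (Glu), with 156 and 91.9. A missing combined summit therefore need not mean a weak signal in the replicates. Replicate 1 placed 116 members among its 634 strongest peaks and replicate 3 placed 78. Thresholded genes missing from a full replicate list were Y51H7BR.t1 (Ser), at 162 in the combined list with no summit in replicate 3, and W10G11.t2 (Thr), which had no summit in its window in either replicate and shares its combined peak of 258 with W10G11.t1.

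**Figure D5:**
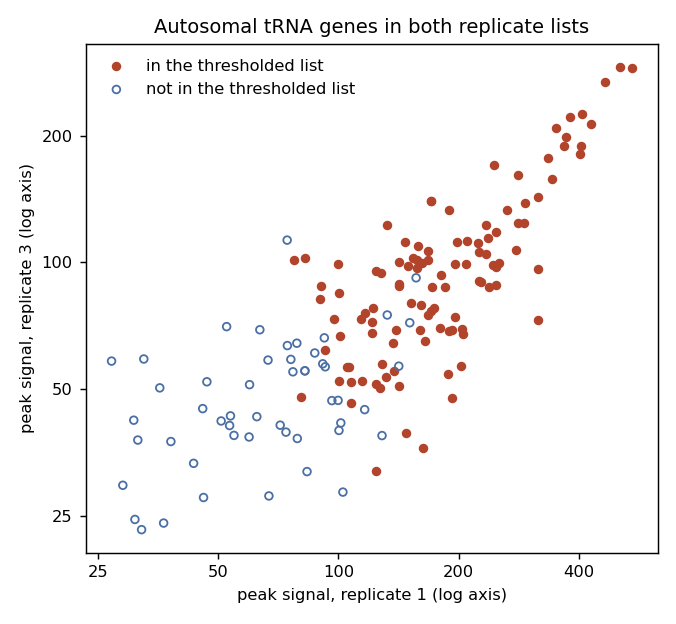
Peak signal in replicate 1 against replicate 3 (both log axes) for the 160 autosomal tRNA genes with a summit in both lists. Filled points are genes in the thresholded list and open points those outside it. The signals rise together (Spearman correlation 0.765 across genes), and the highest points stand apart at the top of both axes.

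Genes that are transcribed by RNA polymerase III without coding for a tRNA gave mixed values. None of the 14 annotated 5S rRNA genes, which use a different internal promoter with TFIIIA, was in the thresholded list, and only rrn-4.15 had a combined summit, at 68.7. Most of these genes are near-identical tandem repeats, where read placement is uncertain. rpr-1, the RNA of RNase P that trims the 5′ end of tRNA precursors, had a thresholded peak of 530.3 (335 in replicate 1 and 203 in replicate 3). mrpr-1, the RNA of the related RNase MRP, had 476, with 296 and 168. yrn-1, a Y RNA gene, had no summit in any list.

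Genes for the transcription and processing machinery were looked up from 1500 bp upstream to 500 bp downstream of their 5′ ends. Of 14 listed names 12 were found. Among the polymerase subunits and transcription factors rpc-1, rpc-2, rpc-11, brf-1, tbp-1, tftc-1, tftc-3 and tftc-5, the repressor mafr-1 and the tRNA 3′ end nuclease hoe-1, none was in the thresholded list, and the highest combined signal was 84.6 at hoe-1. The RNA-binding protein gene larp-1 had a thresholded signal of 158, and the ribosomal protein gene rpl-5, whose product binds 5S rRNA, had 132 in the combined list.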

How the data were processed

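Peaks were read from 4 narrowPeak lists on ce11, which has the sequence of WBcel235. They were 1 for each replicate and 1 on the reads of both, of 30000 entries each, and the thresholded list of 634 peaks. The authors made the last with an analysis of the irreproducible discovery rate. The others are labelled as peaks and background, the input to that analysis. Per the deposited file notes the control is an alignment shared by both replicates; it was not analysed here. Not given in the sources used here are the peak caller, the aligner, the threshold and how reads with several matches were placed. Signal is the deposited value of the authors' caller, with scaling not given. The −log10 q-value was deposited for each peak, and 791 combined peaks shared the highest value. The deposited summit offset was added to the start to place each summit. Depth is unknown, as the lists carry no counts.

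Gene positions came from Ensembl release 115, isotypes and sequence from RefSeq. Isotype was given for 334 members. Anticodons were found for 324 from a stem of 5 pairs (4 required) around a loop of 7 bases, with introns where annotated. Copies are nuclear tRNA genes of identical sequence. Tiles of 272 bp over the autosomes gave the background. Motifs were searched with N for any base. Intervals are exact at 95%. No difference was tested, since there is 1 group and genes are not replicates. The members and lists were chosen with earlier results of these data known. Named are the 10 strongest genes, the best of each isotype, the 5 nearest the threshold on either side, thresholded genes missing from a replicate, genes with a curated name, selenocysteine and GATC-armed Met genes, and the longest groups; other names, the intron genes and family members were chosen after their values were seen. Gene lookup was checked on planted summits. Alternatives were other widths, any overlap of the peak, a stricter and a looser signal limit, 1 gene per summit and each replicate alone. Python 3.11.15, pandas 2.3.3, numpy 2.4.6, scipy 1.17.1 and matplotlib 3.10.9 were used.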

Additional observations from a re-analysis of the deposited data

How the results depend on the processing

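Of 76 recomputed values, 58 stayed within the spread of the replicates or, for counts, within 1.5 times, and 18 moved. None was a test. The spread was the SD of the values from each replicate alone, which are themselves among the values judged. Poor agreement of the replicates thus widens it, and these counts do not measure robustness. The thresholded share of 33.0% became 23.5% with no widening, 22.9% with peaks above the median signal of the list, which also raised the median signal to 313, and 23.2 to 34.5% with either replicate alone. The number of peaks ran from 77 to 112 over the replicates. The combined share of 60.1% became 37.5% with no widening, 53.6% at 50 bp, 66.7% at 250 bp, 71.7% at 500 bp, 68.2% with any overlap and 56.0 to 61.0% over the replicates. Copies counted with 100 bp on either side left every gene unique, so the 1-copy share became 33.0%. Over the replicates alone the shares were 17.4 to 22.1% for 1 copy, 27.5 to 39.2% for 2 to 5, 24.6 to 38.7% for more than 5, 22.2 to 55.6% for exons, 23.4 to 29.9% for introns on the opposite strand, 22.5 to 36.9% on the same strand and 23.7 to 33.8% outside. With no tRNA neighbour they were 26.0 to 39.6% and with neighbours 16.8 to 22.8%, results added after seeing the data. The gap between the highest and lowest isotype, 35.7 percentage points for Lys and Gly, was 27.1 for Asn and Gly in replicate 3, 46.5 for Glu and His in replicate 1, 32.8 for Arg and Gly with 1 gene for each summit and 33.3 for Lys and Gln with any overlap, and the median summit position 19 to 30.5 bp. The median signal was not recomputed per replicate, because the scale of each list is its own. No paired analysis was possible because there is 1 group. With 2 replicates and unknown depth, a gene without a listed summit cannot be called unbound.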
